A study of Mus musculus with 6 samples.

Results

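RNA levels of 10 genes of the unfolded protein response (*Ern1*, *Ern2*, *Xbp1*, *Creb3l1*, *Hspa5*, *Hsp90b1*, *Dnajb9*, *Pdia4*, *Atf4* and *Ddit3*) were examined in intestinal adenomas of ApcMin and Apc1322T mice. The genes were chosen by symbol, by matching the Ensembl identifiers of the count table to the GENCODE M21 annotation. Their measured values were not part of the rule, but earlier results of these data were known when the genes were chosen. The rule found 11 of the 34866 genes of the table, since 2 identifiers carry the symbol *Ddit3*. The second of these (ENSMUSG00000116429, with 105 bp of exons that overlap the main gene) held 3 to 6 counts per library and did not pass the filter on low counts. All 10 symbols thus had 1 gene each among the 16536 genes tested, and none was lost to the filter.

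The adenomas were excised from C57BL/6J mice aged 100 to 120 days that were heterozygous for one of a pair of germline truncations of *Apc*, Apc1322T/+ or ApcMin/+. The Apc1322T truncation is longer and retains part of the β-catenin binding region that the ApcMin product lacks. There were 3 libraries per genotype, each from 1 mouse, typically with several RNA extractions of that mouse pooled. All 6 libraries came from adenomas, so the comparison is between 2 kinds of adenoma, and levels in normal intestine or in wild-type mice were not analysed here. Because whole tissue was lysed, fewer cells of a type and less RNA per cell cannot be told apart.

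The unfolded protein response adjusts the endoplasmic reticulum (ER) to its load of newly made secretory and membrane proteins. Its sensors in the ER membrane are IRE1, PERK and ATF6: IRE1 splices the mRNA of *Xbp1* into the form that encodes an active transcription factor, PERK phosphorylates eIF2α and thereby favours translation of *Atf4*, and ATF6 is cut by Golgi proteases to release a transcription factor. Their targets include ER chaperones, protein disulphide isomerases and the degradation machinery, and in the intestine the pathway is best known from the heavily secreting goblet and Paneth cells. Gene-level counts cover all transcripts of a gene, so they do not separate spliced from unspliced *Xbp1* and do not measure the activity of IRE1, PERK or ATF6.

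One promoter element links some ER chaperone genes to these sensors. The ER stress response element (ERSE) is bound by ATF6 and XBP1 and consists of CCAAT and CCACG separated by 9 bases. Windows of 300 bases from RefSeq on GRCm38.p6, running from 250 bases before to 50 bases after the RefSeq start of the gene, were given for 8 of the 10 genes, all but *Ern2* and *Creb3l1*. RefSeq starts differ from the outermost GENCODE starts behind the gene coordinates given below, and lay 120 bases downstream of them for *Hspa5*, 65 for *Hsp90b1* and 258 for *Dnajb9*, whose window is thus inside its GENCODE gene. The element was searched on both strands. The windows of *Hspa5* (chr2:34771840-34772139, plus strand), *Hsp90b1* (chr10:86705395-86705694, minus strand) and *Dnajb9* (chr12:44210019-44210318, minus strand) are shown 5′ to 3′ on the strand of the gene, the first 2 because they hold the whole element and the third because *Dnajb9* had the smallest p of the 10 genes. Capitals mark CCAAT and CCACG of the element (in reverse complement where it lies on the other strand) in *Hspa5* and *Hsp90b1*, and CCACG alone in *Dnajb9*.
Hspa5: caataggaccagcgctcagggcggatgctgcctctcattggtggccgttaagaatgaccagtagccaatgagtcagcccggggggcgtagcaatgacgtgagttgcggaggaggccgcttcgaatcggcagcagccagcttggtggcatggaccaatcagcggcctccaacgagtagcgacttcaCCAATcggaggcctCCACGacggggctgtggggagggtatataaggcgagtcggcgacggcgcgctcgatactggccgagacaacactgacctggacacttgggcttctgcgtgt
Hsp90b1: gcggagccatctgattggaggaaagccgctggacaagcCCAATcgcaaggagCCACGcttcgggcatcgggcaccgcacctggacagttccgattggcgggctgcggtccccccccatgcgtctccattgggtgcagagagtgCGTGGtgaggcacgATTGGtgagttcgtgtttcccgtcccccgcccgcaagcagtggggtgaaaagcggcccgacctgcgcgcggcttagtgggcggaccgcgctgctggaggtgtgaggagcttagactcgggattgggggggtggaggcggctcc
Dnajb9: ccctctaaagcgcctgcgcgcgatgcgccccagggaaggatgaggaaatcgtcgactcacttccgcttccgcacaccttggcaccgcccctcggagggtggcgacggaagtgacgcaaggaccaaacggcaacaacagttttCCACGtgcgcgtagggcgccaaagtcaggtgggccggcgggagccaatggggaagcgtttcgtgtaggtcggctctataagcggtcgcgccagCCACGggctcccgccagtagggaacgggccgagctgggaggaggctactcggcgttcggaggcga

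The window of *Hspa5* held 1 whole element (bases 186 to 204 of the window), and that of *Hsp90b1* held 2, at bases 39 to 57 on the strand of the gene and at bases 144 to 162 on the other strand. The whole element was thus in 2 of the 8 genes, and 0.119% of all 32851 promoter windows held it. These shares describe the sequences and are not a test of enrichment. CCACG alone, which every whole element contains, was found in 6 of the 8 genes (*Ern1*, *Hspa5*, *Atf4*, *Dnajb9*, *Hsp90b1* and *Pdia4*) and in 32.8% of all windows. In *Dnajb9* it lay at bases 143 to 147 and 236 to 240. Of 3 further elements, ERSE-II (ATTGG, 1 base, CCACG), TGACGTGG of the XBP1 response element and TGATGCAA of the amino acid response element, none of these letters was in any of the 8 windows, and they were in 0.0365%, 0.676% and 0.895% of all windows.

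The libraries held 23132461 to 33518324 estimated counts. ApcMin replicate 1 stood apart in holding pancreatic RNA: *Ctrb1*, *Cpa1*, *Cela2a*, *Cela3b*, *Pnlip*, *Prss2*, *Try4* and *Cel*, which encode digestive enzymes of pancreatic acinar cells, had 254 to 2679 counts each in it and 0 to 16 in the other 5 libraries. The ninth acinar gene listed, *Clps*, had a log2 fold change of 0.071 ± 0.27. Acinar cells are themselves rich in ER, and the fold changes of *Ern2*, *Creb3l1* and the chaperone genes are given below with and without this library. The intestinal epithelium markers were abundant everywhere, with *Epcam*, the epithelial adhesion molecule, at a log2 CPM of 11.36, 11.41 and 11.40 in Apc1322T and 11.04, 11.12 and 10.81 in ApcMin replicates 1, 2 and 3.

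None of the 10 genes passed an adjusted p under 0.01 between the genotypes, and nor did any of the 16536 genes tested by edgeR (0% called, with 2495 genes or 15.1% at an unadjusted p under 0.05). In simulated data, this test called 85% of genes with a log2 change of 2 in either direction and 1% of those with 0.5. The fitted changes of the 10 genes ran from -0.50 to 0.082, and changes of that size would rarely pass. The fitted log2 fold change (ApcMin minus Apc1322T, so that negative values are lower in ApcMin) was below 0 for 9 of the 10 genes, against 47.6% of all genes tested, with a median of -0.26 over the 10 genes and of 0.017 over all genes. *Dnajb9* alone had an unadjusted p under 0.05, which is 10% of the genes, and 7.60% of all genes did so in the same direction. *Dnajb9* and *Atf4* were the 2 genes whose 3 ApcMin libraries all lay below the 3 Apc1322T libraries (20%), against 9.96% of all genes in that direction and 21.0% in either direction. The Wald test of DESeq2 called 1.12% of genes (194 of the 17346 with an adjusted p) and none of the 10, with an adjusted p of 0.0147 for *Dnajb9*.

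**Figure D1:**
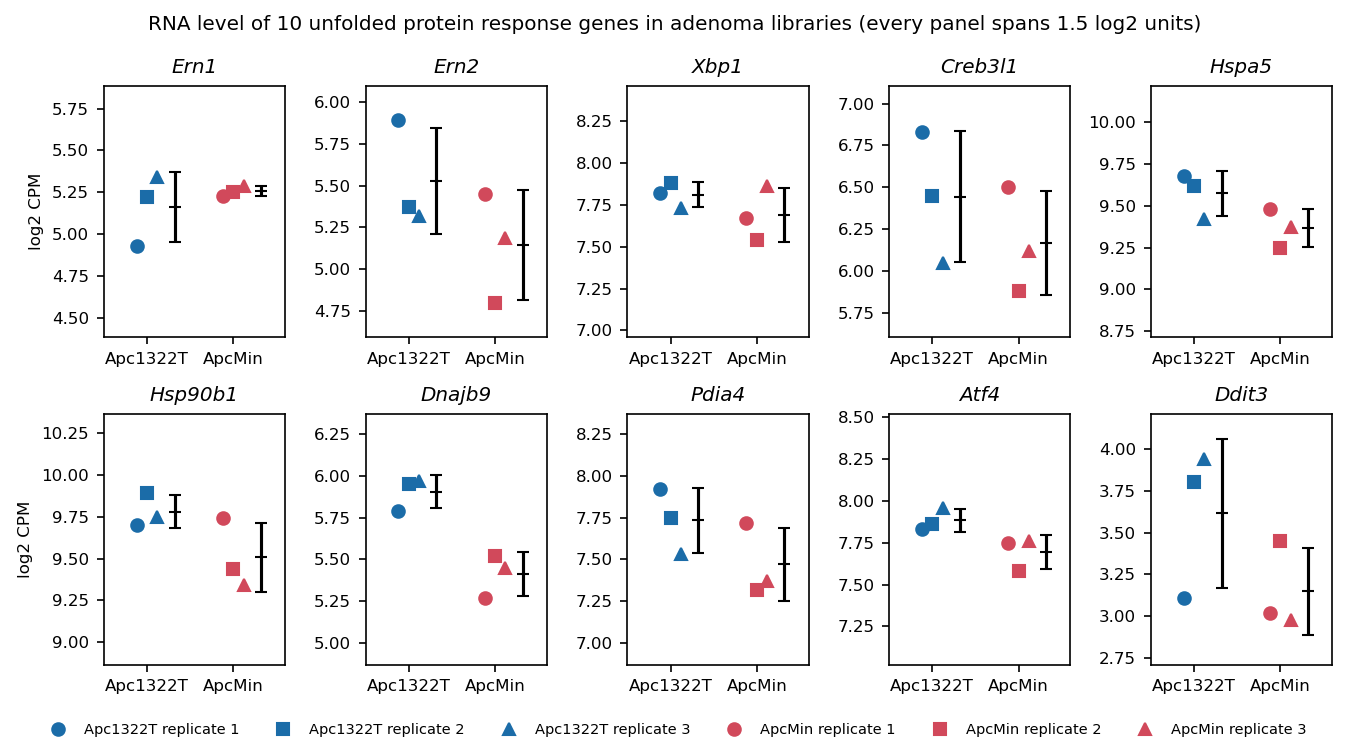
Level of each of the 10 genes (vertical axis, log2 CPM, each panel spanning 1.5 units) in the 3 Apc1322T (blue) and 3 ApcMin (red) adenoma libraries, with symbols for the replicate and a bar for the mean ± SD of the 3 libraries. The genotypes are separate in *Dnajb9* and *Atf4* and overlap in the other 8 genes.

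*Ern1* encodes IRE1α, the ubiquitous form of the sensor that splices *Xbp1*. It lies at chr11:106394650-106487852 (minus strand, GRCm38). Its log2 CPM was 4.93, 5.22 and 5.34 in Apc1322T replicates 1, 2 and 3 and 5.23, 5.25 and 5.29 in the ApcMin replicates. The ApcMin libraries lay within 0.06 log2 units of each other (SD 0.028, n = 3) and inside the range of the Apc1322T libraries, of which replicate 1 was the low one. *Ern1* was the one gene of the 10 with a positive fold change, 0.082 ± 0.12 (SE, adjusted p = 0.752 in the edgeR fit, corrected over all genes by Benjamini-Hochberg), and without Apc1322T replicate 1 it was -0.022.

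*Ern2* (chr7:122169893-122186207, minus strand) encodes IRE1β, a form of the sensor found in mucosal epithelia and especially in goblet cells. In log2 CPM, *Ern2* was at 5.89, 5.37 and 5.32 in Apc1322T and 5.45, 4.80 and 5.19 in ApcMin replicates 1 to 3. Apc1322T replicate 1 was high and ApcMin replicate 2 low, and ApcMin replicate 1 lay above the other two Apc1322T libraries, so the genotypes overlapped. The fold change was -0.38 ± 0.22 (adjusted p = 0.427), and it was -0.55 without ApcMin replicate 1 (adjusted p = 0.429) and -0.17 without Apc1322T replicate 1 (adjusted p = 0.624).

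Set against each other within a library, the levels of the 2 IRE1 genes varied widely. The log2 CPM of *Ern2* minus that of *Ern1* was 0.96, 0.15 and -0.019 in Apc1322T and 0.22, -0.45 and -0.10 in ApcMin replicates 1 to 3. The mean difference was 0.36 ± 0.52 (SD, n = 3) in Apc1322T and -0.11 ± 0.33 in ApcMin, and the genotypes were not distinguished (two-sided exact permutation p = 0.3, where 3 libraries against 3 cannot give less than 0.10). Only the library with the most *Ern2* and the least *Ern1*, Apc1322T replicate 1, stood well above the others.

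*Xbp1* (chr11:5520659-5525893, plus strand), the transcription factor downstream of IRE1, was among the steadiest of the genes. Its log2 CPM was 7.82, 7.88 and 7.73 in Apc1322T and 7.67, 7.54 and 7.86 in ApcMin replicates 1 to 3. ApcMin replicate 3 was higher than 2 of the Apc1322T libraries, and the fold change of -0.11 ± 0.11 (adjusted p = 0.629) was no larger than its error.

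*Creb3l1* (chr2:91982328-92024502, minus strand) encodes OASIS, an ER membrane-bound transcription factor related to ATF6 that is released by cleavage and promotes secretory differentiation. Its log2 CPM was 6.83, 6.45 and 6.05 in Apc1322T and 6.50, 5.88 and 6.12 in ApcMin replicates 1 to 3. As for *Ern2*, Apc1322T replicate 1 was the highest library and ApcMin replicate 2 the lowest. The fold change was -0.29 ± 0.24 (adjusted p = 0.558), and it was -0.48 without ApcMin replicate 1 and -0.073 without Apc1322T replicate 1.

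*Hspa5* (chr2:34771970-34777547, plus strand) encodes BiP, the main Hsp70 chaperone of the ER and the protein that keeps the sensors inactive in unstressed cells. Log2 CPM values were 9.68, 9.62 and 9.42 in Apc1322T and 9.48, 9.25 and 9.37 in ApcMin replicates 1 to 3. Only ApcMin replicate 1 reached into the Apc1322T range, just above Apc1322T replicate 3. ApcMin minus Apc1322T came to -0.20 ± 0.12 (a ratio of 0.868, adjusted p = 0.426), and without ApcMin replicate 1 it was -0.26 (adjusted p = 0.474).

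*Hsp90b1* (chr10:86690209-86705509, minus strand) encodes GRP94, the Hsp90 chaperone of the ER. Per library, it had a log2 CPM of 9.70, 9.89 and 9.75 in Apc1322T and 9.74, 9.44 and 9.34 in ApcMin replicates 1 to 3. Again ApcMin replicate 1 was the library that overlapped, while the other two were below all Apc1322T libraries. Fitted over all libraries, the difference was -0.26 ± 0.13 (adjusted p = 0.385), and -0.39 without ApcMin replicate 1 (unadjusted p = 0.0236, adjusted p = 0.384).

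*Pdia4* (chr6:47796141-47813430, minus strand) encodes ERp72, a disulphide isomerase that helps secretory proteins to form their disulphide bonds. Libraries had a log2 CPM of 7.92, 7.75 and 7.53 in Apc1322T and 7.72, 7.32 and 7.37 in ApcMin replicates 1 to 3. ApcMin replicate 1 lay within the Apc1322T range and the other two ApcMin libraries below it. The genotypes differed in the fit by -0.26 ± 0.15 (adjusted p = 0.428), and -0.40 without ApcMin replicate 1 (unadjusted p = 0.0321, adjusted p = 0.406).

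*Dnajb9* (chr12:44205559-44210326, minus strand) encodes ERdj4, a J-domain co-chaperone of BiP that is a well-known target of XBP1 and acts in ER-associated degradation. The measured log2 CPM was 5.79, 5.95 and 5.97 in Apc1322T and 5.27, 5.52 and 5.45 in ApcMin replicates 1 to 3. All 3 ApcMin libraries were below all 3 Apc1322T libraries, and here ApcMin replicate 1 was the lowest of the 6. This gave a fold change of -0.49 ± 0.10 (a ratio of 0.714, unadjusted p = 0.00227, adjusted p = 0.257, two-sided exact permutation p = 0.1), and without ApcMin replicate 1 it was -0.42 (adjusted p = 0.357).

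The chaperone values therefore differed in how they depended on ApcMin replicate 1. This library held the pancreatic RNA, with summed acinar markers of 208 CPM, against 17.9 to 30.7 CPM in Apc1322T and 20.5 CPM in each other ApcMin library. The sums include *Clps*, which had a log2 CPM of 4.12 to 5.05 over all libraries. The other 8 acinar genes had 0 to 16 counts each outside ApcMin replicate 1. ApcMin replicate 1 also had the most RNA of the fibroblast markers described below (3361 CPM). In *Hspa5*, *Hsp90b1* and *Pdia4* that library was the highest of the 3 ApcMin libraries, and the difference between the genotypes was larger without it. In *Dnajb9* it was the lowest, and the difference was smaller without it. With it left out, 6 genes had ApcMin libraries that were all below the Apc1322T libraries (*Ern2*, *Hspa5*, *Atf4*, *Dnajb9*, *Hsp90b1* and *Pdia4*), against 31.8% of all genes not overlapping in either direction, and 3 (*Dnajb9*, *Hsp90b1* and *Pdia4*) had an unadjusted p under 0.05, against 11.8% of all genes. The part of the pancreatic or fibroblast RNA in these values was not tested.

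*Atf4* (chr15:80255184-80257541, plus strand) encodes the transcription factor whose translation increases when eIF2α is phosphorylated, so that its mRNA level is a poor measure of its activity. Its log2 CPM was 7.83, 7.86 and 7.96 in Apc1322T and 7.75, 7.58 and 7.76 in ApcMin replicates 1 to 3. The genotypes did not overlap, but the gap between the highest ApcMin and the lowest Apc1322T library was close to the spread within the genotypes. The fold change was -0.19 ± 0.09 (a ratio of 0.878, unadjusted p = 0.078, adjusted p = 0.369, two-sided exact permutation p = 0.1).

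*Ddit3* (chr10:127290774-127296288, plus strand) encodes CHOP, a transcription factor induced by ATF4 that promotes cell death under lasting ER stress. It was the least counted of the 10 genes, with 234 to 349 counts per library. In log2 CPM it was at 3.11, 3.80 and 3.94 in Apc1322T and 3.02, 3.45 and 2.98 in ApcMin replicates 1 to 3. Apc1322T replicate 1 was nearly as low as the low ApcMin libraries. The fold change was -0.50 ± 0.25 (adjusted p = 0.385) and was numerically the largest of the 10, although with the largest error, and without Apc1322T replicate 1 it was -0.71 (unadjusted p = 0.0108, adjusted p = 0.105). Salmon could divide reads between *Ddit3* and the second gene of that symbol, which overlaps it.

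The ratio of *Atf4* to *Ddit3* was not distinguishable between the genotypes. The log2 CPM of *Atf4* minus that of *Ddit3* was 4.72, 4.06 and 4.02 in Apc1322T and 4.72, 4.13 and 4.78 in ApcMin replicates 1 to 3 (two-sided exact permutation p = 0.2). The difference between *Hspa5* and *Hsp90b1*, the most abundant chaperone genes, was -0.21 ± 0.16 (SD, n = 3) in Apc1322T and -0.14 ± 0.15 in ApcMin (exact permutation p = 0.5).

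The 10 genes differed far more from one another than between the genotypes. Levels of different genes were compared as CPM per kb of merged exons. This length joins the exons of all annotated transcripts of a gene (8173 bp for *Ern1* and 2964 bp for *Ern2*), and the order of the genes depends on it. The mean over the 6 libraries was 200 CPM per kb for *Hsp90b1* and 169 for *Hspa5*. It was 94.1 for *Atf4*, 81.8 for *Pdia4* and 66.5 for *Xbp1*, and thus the transcription factors *Atf4* and *Xbp1* were at levels near that of a disulphide isomerase. *Creb3l1* followed at 31.1, *Dnajb9* at 20.1 and *Ern2* at 14.0, and *Ddit3* at 6.27 and *Ern1* at 4.53 CPM per kb were the lowest.

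Neighbours in this order were clearly separate, with ranges over the 6 libraries that did not overlap, at 3 places: between *Hspa5* and *Atf4*, between *Xbp1* and *Creb3l1*, and between *Ern2* and *Ddit3*. *Ern2* was above *Ern1* per kb in both genotypes, with 15.8 ± 3.64 against 4.41 ± 0.626 CPM per kb in Apc1322T and 12.1 ± 2.69 against 4.66 ± 0.0915 in ApcMin (SD, n = 3). Between the other neighbours the ranges overlapped, and the order of *Atf4* and *Pdia4*, of *Pdia4* and *Xbp1* and of *Ddit3* and *Ern1* held in 5 of 6 libraries, whereas each of the other neighbouring pairs kept its order in 6 of 6.

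**Figure D2:**
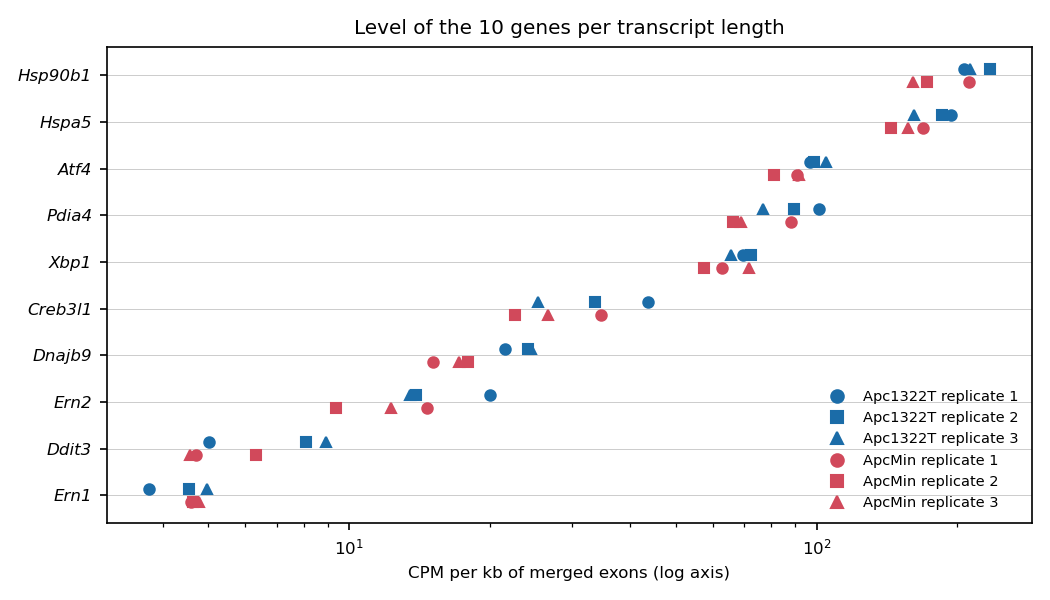
Level of the 10 genes per length of merged exons (horizontal axis, CPM per kb, log axis) in each of the 3 Apc1322T (blue) and 3 ApcMin (red) libraries, ordered by the mean over all 6. The genes span from 4.53 CPM per kb for *Ern1* to 200 for *Hsp90b1*, and the gaps below *Hspa5*, *Xbp1* and *Ern2* separate them into 4 groups.

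Variation between libraries of a genotype also set the genes apart. *Atf4* had a within-genotype SD of 0.085 log2 units, and 10.2% of all genes tested had a smaller one. *Dnajb9* (0.12), *Xbp1* (0.13), *Hspa5* (0.13), *Ern1* (0.15), *Hsp90b1* (0.16) and *Pdia4* (0.21) were also below the median SD of all genes, 0.22. *Ern2* (0.32), *Creb3l1* (0.35) and *Ddit3* (0.36) were above it. Across libraries, 4 of the 10 genes had their highest log2 CPM in Apc1322T replicate 1, 2 in replicate 2 and 4 in replicate 3, and 0 in an ApcMin library. ApcMin replicate 2 held the lowest value of 6 genes. The shares of all genes with these extremes are not given, so these counts are descriptions only.

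For *Ern2*, *Xbp1* and *Hspa5*, the genes with the most similar profile were sought among the 6204 tested genes with a mean log2 CPM of at least 5, by the root mean square difference of the centred log2 CPM over the 6 libraries. *Cpne2* was nearest to *Ern2* (0.026 log2 units, where *Ern2* itself varied by 0.325), followed by *Stk39* (0.0631) and *Sgsm3* (0.0805). The nearest to *Xbp1* were *Ubl4a* (0.0185), *Gng5* (0.0315) and *Gm32899* (0.0388), with *Xbp1* varying by 0.118. The nearest to *Hspa5* were *Psmc3*, a proteasome subunit gene (0.0291), *Mydgf* (0.0324) and *Spr* (0.0338), with *Hspa5* varying by 0.145. With 6 libraries and so many genes, close profiles are easily found, and these are descriptions.

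The rest of the pathway was read from 5 lists of 86 genes, all of which were tested. The lists were chosen with earlier results of these data known. No gene of these lists passed the adjusted threshold, and 67 of the 86 had a fold change below 0 (77.9%, against 47.6% of all genes), with a median of -0.15. Of the 86, 22 had an unadjusted p under 0.05 and were lower in ApcMin (25.6%, against 7.60% of all genes), and 2 had one and were higher.

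Among 10 other sensors, related transcription factors and activating proteases, 2 were lower and 1 was higher at an unadjusted p under 0.05. Together these were 30%, against 15.1% of all genes. The median fold change was -0.14 (-0.089 without Apc1322T replicate 1). *Eif2ak3*, which encodes PERK, had a log2 CPM of 5.67, 5.43 and 5.82 in Apc1322T and 5.45, 5.58 and 5.32 in ApcMin replicates 1 to 3, with overlap and a fold change of -0.20 ± 0.13 (adjusted p = 0.47). *Atf6* had 5.99, 5.74 and 5.84 in Apc1322T and 5.76, 5.89 and 5.93 in ApcMin, with the same mean of 5.86 in both genotypes (fold change -0.0019 ± 0.097). The lower genes were *Creb3* (-0.35 ± 0.085, unadjusted p = 0.00473) and *Creb3l4* (-0.68 ± 0.25, unadjusted p = 0.0337), both of the family of *Creb3l1*, and the higher was *Mbtps1* (0.27 ± 0.11, unadjusted p = 0.0397), which encodes the site-1 protease that cuts ATF6. Their adjusted p values were 0.257, 0.311 and 0.317.

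Of 20 ER chaperones and foldases, 19 had a fold change below 0. At an unadjusted p under 0.05, 5 were lower (25%, against 7.60% of all genes) and 0 were higher. The median was -0.19 (-0.27 without ApcMin replicate 1). The smallest p was that of *Agr2*, a disulphide isomerase needed for mucin production that is also on the goblet cell list. Its log2 CPM was 10.21, 9.87 and 9.82 in Apc1322T and 9.42, 9.10 and 9.24 in ApcMin replicates 1 to 3, and the genotypes were separate (fold change -0.72 ± 0.15, unadjusted p = 0.00214, adjusted p = 0.257). *P4hb*, the classical disulphide isomerase, had a fold change of -0.48 ± 0.11 (unadjusted p = 0.00436) and *Dnajb11*, another co-chaperone of BiP, one of -0.28 ± 0.084 (unadjusted p = 0.0133). Both were separate between the genotypes too, but genes named for a small p are likely to be. Over the list, 7 of the 20 genes were separate and lower in ApcMin, against 9.96% of all genes.

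Of 18 genes of ER translocation and vesicle transport, 15 had a fold change below 0. At an unadjusted p under 0.05, 8 were lower (44.4%, against 7.60% of all genes) and 0 were higher. The median was -0.18. *Sec24d*, a COPII coat component, had the smallest p of the 5 lists, with a log2 CPM of 7.14, 7.46 and 7.48 in Apc1322T and 6.56, 6.72 and 6.66 in ApcMin replicates 1 to 3 (fold change -0.72 ± 0.11, unadjusted p = 0.000487, adjusted p = 0.257). Its COPII partner *Sec31a* had a fold change of -0.41 ± 0.09 (unadjusted p = 0.00282), and *Tram1*, a translocon-associated protein gene, one of -0.26 ± 0.07 (unadjusted p = 0.00762). In all 3 genes every ApcMin library was below every Apc1322T library, but they were named for their small p, which favours such separation. Over the list, 8 of the 18 genes were separate in this direction, against 9.96% of all genes.

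Of 19 genes of ER-associated degradation, 16 had a fold change below 0. At an unadjusted p under 0.05, 5 were lower (26.3%, against 7.60% of all genes) and 0 were higher. The median was -0.18. The smallest p values were those of *Edem2* (-0.37 ± 0.096, unadjusted p = 0.00658), which acts in mannose trimming, *Os9* (-0.42 ± 0.11, unadjusted p = 0.00721), a lectin that recognises misfolded glycoproteins, and *Sel1l* (-0.32 ± 0.09, unadjusted p = 0.00961), the partner of the HRD1 ubiquitin ligase.

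The list of Atf4 targets and related genes of the integrated stress response had no common direction. Of its 19 fold changes 9 were below 0 (47.4%, against 47.6% of all genes), and the median was 0.026. At an unadjusted p under 0.05, 2 genes were lower and 1 was higher (15.8% together, against 15.1% of all genes). *Slc7a11*, the cystine transporter, was the higher one, with a log2 CPM of 2.73, 2.02 and 2.56 in Apc1322T and 4.09, 3.67 and 3.24 in ApcMin replicates 1 to 3 and no overlap (fold change 1.25 ± 0.28, unadjusted p = 0.00331, adjusted p = 0.257). *Atf3*, a stress-induced transcription factor, had a fold change of -1.14 ± 0.35 (unadjusted p = 0.0178) and *Ppp1r15b* one of -0.43 ± 0.14 (unadjusted p = 0.0197). *Ppp1r15b* encodes the constitutive regulatory subunit of the eIF2α phosphatase and is a related gene rather than an Atf4 target. The sign of the median of this list changed when any of 4 of the 6 libraries was left out. The difference between this list and the others was not tested.

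**Figure D3:**
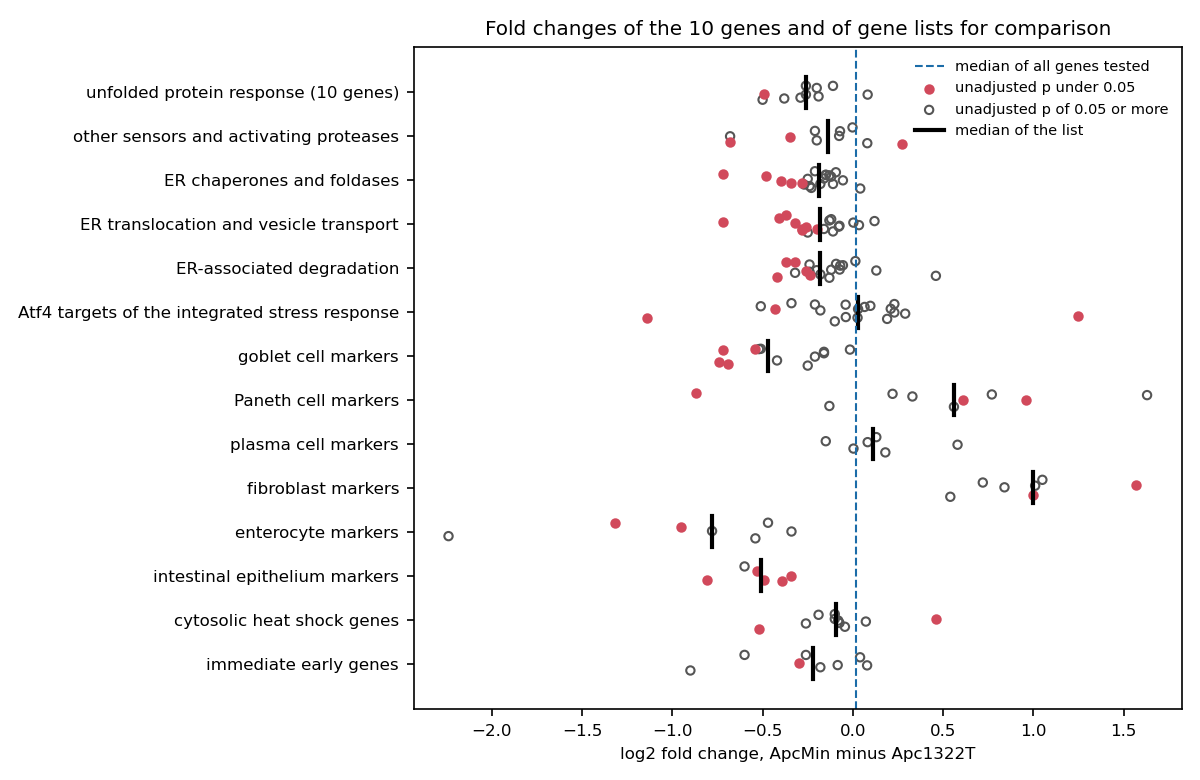
Log2 fold change, ApcMin minus Apc1322T (horizontal axis), of every tested gene of the 10 unfolded protein response genes, of 5 pathway lists and of 8 marker and stress lists. Filled points have an unadjusted p under 0.05, thick bars are list medians and the dashed line is the median of all genes tested (0.017). The medians of the 10 genes (-0.26) and of the 3 ER lists for folding, transport and degradation (-0.19, -0.18 and -0.18) lie to its left. So do those of other sensors (-0.14), heat shock (-0.091), immediate early (-0.22), goblet cell (-0.47), epithelium (-0.51) and enterocyte (-0.78) genes. Those of the Atf4 list (0.026) and of plasma cell (0.11), Paneth cell (0.56) and fibroblast (1.00) markers lie to its right.

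Cell type markers differed between the libraries alongside these genes. All 6 intestinal epithelium markers had a fold change below 0 (median -0.51). Of these, 5 were at an unadjusted p under 0.05 (83.3%, against 7.60% of all genes in that direction). *Epcam* was at -0.39 ± 0.12, *Krt20* at -0.81 ± 0.27 and *Cdh17* at -0.53 ± 0.20. The summed level of the 6 markers was 10716 to 14240 CPM in Apc1322T and 8437 to 10569 CPM in ApcMin. All 7 fibroblast markers had a fold change above 0 (median 1.00), those with the smallest p being *Pdgfra* (1.00 ± 0.23), *Lum* (1.57 ± 0.56) and *Dcn* (0.72 ± 0.34), with summed levels of 626 to 1563 CPM in Apc1322T and 1012 to 3361 CPM in ApcMin. The upper value was that of ApcMin replicate 1, and the other two ApcMin libraries, at 1012 and 1477 CPM, lay inside the Apc1322T range.

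All 12 goblet cell markers had a fold change below 0 (median -0.47). Of the 12, 4 were at an unadjusted p under 0.05 (33.3%, against 7.60% of all genes in that direction). The summed level was 6482 to 9766 CPM in Apc1322T and 4421 to 6632 CPM in ApcMin. The smallest p values after *Agr2* were those of *Fcgbp* (-0.74 ± 0.21) and *Zg16* (-0.69 ± 0.29), both genes of the mucus layer. All 7 enterocyte markers were also below 0 (median -0.78), with *Fabp1* at -1.32 ± 0.45 and *Apoa1* at -0.78 ± 0.43, and their summed level ranged from 7866 to 15556 CPM in Apc1322T and from 5544 to 10859 CPM in ApcMin. Paneth cell markers went the other way in 7 of 9 genes (median 0.56, summed level 1820 to 2974 CPM in Apc1322T and 2778 to 3182 in ApcMin), including *Mptx2* (0.96 ± 0.34) and *Lyz1* (0.61 ± 0.26) but not *Habp2* (-0.87 ± 0.21).

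Plasma cell markers, from cells that depend strongly on *Xbp1*, varied mainly between single libraries. Their summed level was 3817 to 5745 CPM in Apc1322T. In ApcMin it was 2976 and 2528 CPM in replicates 1 and 2 and 9313 CPM in replicate 3, the ApcMin library with the most *Xbp1*. In Apc1322T the order differed, as replicate 2 had the most *Xbp1* (log2 CPM 7.88) and the lowest plasma cell sum (3817 CPM). The median fold change of the plasma cell markers was 0.11, and none had an unadjusted p under 0.05. *Pou2af1* (0.58 ± 0.50), *Mzb1* (0.18 ± 0.45) and *Tnfrsf17* (-0.15 ± 0.47) were those with the smallest p. No gene of any of these marker lists was at 0 in all libraries. The part of the makeup of the tissue in the values of the 10 genes was not tested.

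**Figure D4:**
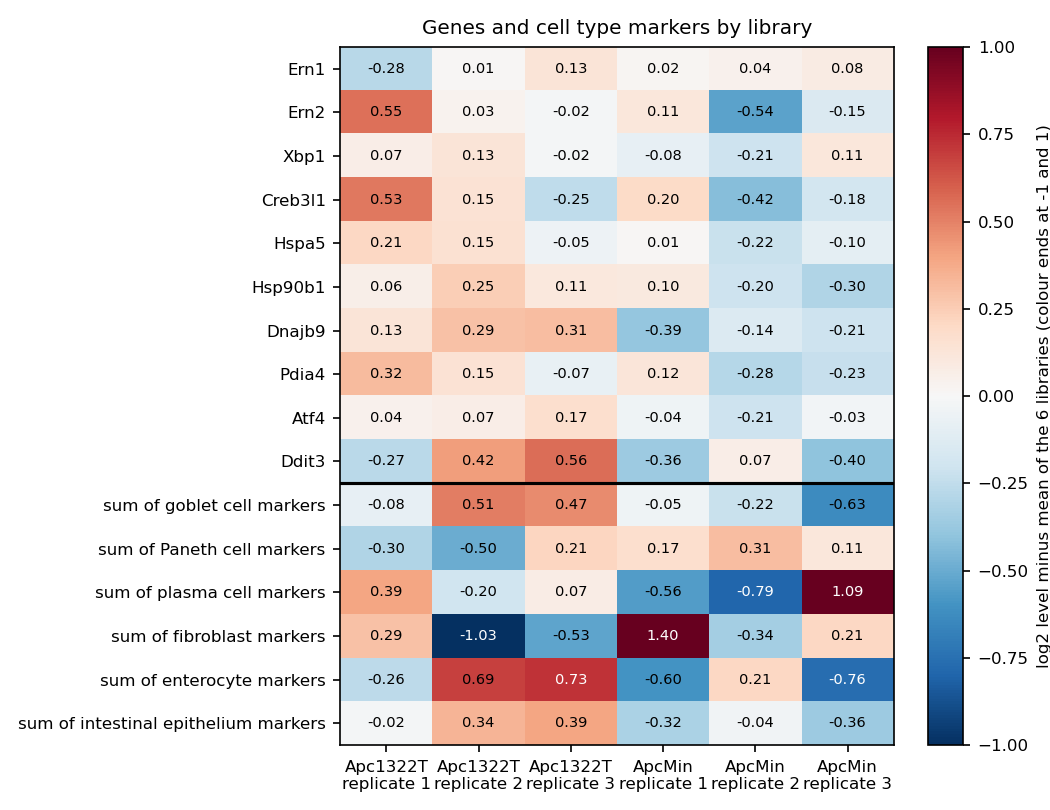
Log2 CPM of the 10 genes and log2 of the summed CPM of 6 marker lists in each library (columns), as the difference from the mean of the 6 libraries, with the value in each cell and colours that end at -1 and 1. *Ern2* and *Creb3l1* are highest in Apc1322T replicate 1 and lowest in ApcMin replicate 2. The summed epithelium markers are lower in every ApcMin library than in any Apc1322T library, but narrowly (up to 10569 CPM against 10716 CPM or more).

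The 10 genes were also set against the epithelium of the same library. The mean log2 CPM of the 6 epithelium markers was 10.13, 10.57 and 10.62 in Apc1322T and 9.89, 10.16 and 9.70 in ApcMin replicates 1 to 3. The difference was -0.53 (two-sided exact permutation p = 0.2), and the genotypes overlapped in this mean. Taking values relative to this mean, a scale chosen after the data were seen, moves every gene of a library by the same amount, so that the median difference of all genes tested became 0.54 and 94% of them were higher in ApcMin. The 10 genes had a median of 0.26 on that scale, from 0.04 for *Dnajb9* to 0.62 for *Ern1*. On both scales 9 of the 10 lay below the median of all genes. A shift shared by all genes cannot change this count, so it is not a second result. *Ern1* was the one gene of the 10 whose genotypes did not overlap on the relative scale, where 33.2% of all genes did not overlap. It was at -5.20, -5.35 and -5.28 in Apc1322T and -4.66, -4.92 and -4.41 in ApcMin (two-sided exact permutation p = 0.1). The separation of *Dnajb9* was not seen on this scale, with -4.35, -4.62 and -4.65 in Apc1322T and -4.62, -4.64 and -4.24 in ApcMin (exact permutation p = 0.6).

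Heat shock and immediate early genes were read for comparison as responses outside the ER that handling of tissue can also induce. Of 10 heat shock genes of the cytosol and mitochondria (median -0.091), 1 was lower and 1 higher at an unadjusted p under 0.05 (20%, against 15.1% of all genes). These were *Hspa1b* (-0.52 ± 0.21) and *Hspb1* (0.46 ± 0.17), and *Dnajb1* was at -0.19 ± 0.092. Of 8 immediate early genes (median -0.22), 1 was lower at that level (12.5%, against 7.60% of all genes in that direction). This was *Jun* at -0.30 ± 0.11, with *Zfp36* at -0.60 ± 0.27 and *Fosb* at -0.90 ± 0.43.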

How the data were processed

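RNA-seq of ApcMin/+ and Apc1322T/+ adenomas (3 libraries each) was analysed. The libraries were stranded, from mRNA in 1 µg of total RNA, and sequenced as single-end reads of 50 bases. The authors quantified reads with Salmon against the GRCm38 transcriptome and deposited estimated counts per gene, without normalization. These were rounded to whole numbers. Symbols were matched for 34652 of 34866 genes, and 0 value columns went unused.

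Genes were filtered with filterByExpr (minimum count 10, minimum total 15), normalised by TMM and compared in edgeR 4.0.16 (R 4.3.3) by its quasi-likelihood F test in robust form, with Benjamini-Hochberg adjustment over all 16536 genes at a threshold of 0.01. This is the source of every adjusted p not credited to DESeq2. Log2 CPM used a prior count of 2. Fold changes are given ± SE. DESeq2 1.42.0, the test of the study, and limma 3.58.1 were alternatives, beside other normalizations and filters, a replicate block and leaving out each library. Scripts were tested on simulated data. The p-values measure the spread between mice of a genotype. Library pairs differed by 23.3 to 150 chi-square units per gene, so none was a duplicate.

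With 3 counts as the smallest reliable number, the limit was 0.0895 to 0.13 CPM per library, for counting error only. The 10 genes and all lists were chosen with earlier results of these data known. Named genes were the 10, the 3 of each list with the smallest p, *Eif2ak3*, *Atf6*, and the 3 most similar to *Ern2*, *Xbp1* and *Hspa5*. *Cpa1*, *Cela2a*, *Cela3b*, *Pnlip*, *Prss2*, *Try4*, *Cel* and *Spdef* were named after their values were seen. The values of 1 gene of the enterocyte list that this rule names are not reported here.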

Additional observations from a re-analysis of the deposited data

How the results depend on the processing

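Other normalizations, tests and filters and leaving out a library did not change the direction of any of the 10 genes except that *Ern1* was -0.022 without Apc1322T replicate 1 (-0.022 to 0.17 with each library left out), and none gave any of them an adjusted p under 0.01. Relative to the epithelium markers, which moved all genes upwards together (median of all genes 0.54), the sign turned, to 0.14 for *Ern2*, 0.41 for *Xbp1*, 0.32 for *Hspa5*, 0.34 for *Atf4*, 0.056 for *Ddit3*, 0.04 for *Dnajb9*, 0.25 for *Hsp90b1*, 0.24 for *Creb3l1* and 0.26 for *Pdia4*. The number of genes past the threshold was 194 with DESeq2, 1 without a filter, 1 at an adjusted p under 0.05 and 0 to 1 with each library left out (1 without ApcMin replicate 3). Of the 10 genes, 1 to 3 had an unadjusted p under 0.05 and 2 to 6 did not overlap with each library left out: 2 and 4 without Apc1322T replicate 1 (24.4% and 48% of all genes), 1 and 5 without Apc1322T replicate 3 (8.63% and 28.2%), and 3 and 6 without ApcMin replicate 1. With each library left out, the median of the 10 genes ranged from -0.40 (without ApcMin replicate 1) to -0.16 (without Apc1322T replicate 1), and was -0.17 without ApcMin replicate 2. That of the translocation list ranged from -0.21 to -0.14. That of the list of Atf4 targets and related genes ranged from -0.099 to 0.085. It reversed to -0.037 without Apc1322T replicate 2, -0.052 without Apc1322T replicate 3, -0.099 without ApcMin replicate 1 and -0.027 without ApcMin replicate 3. The cause was not tested.

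Same-numbered libraries come from different mice and the correlations of their deviations from the genotype means had no common sign (-0.0139, 0.164 and -0.286 for replicates 1, 2 and 3), so the libraries share only a number. With the replicate number as a block, 2 of the 10 genes had an unadjusted p under 0.05, *Dnajb9* (0.00302) and *Ern2* (0.0265), against 12.8% of all genes, and 0 genes passed the threshold.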

Other observations

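The goblet cell transcription factor gene *Spdef*, chosen after its values were seen, had a log2 CPM of 6.87, 6.32 and 6.05 in Apc1322T and 6.20, 5.45 and 6.05 in ApcMin replicates 1 to 3 (fold change -0.52 ± 0.27, adjusted p = 0.397 by edgeR). Like *Ern2*, *Creb3l1*, *Creb3l4*, *Hspa5* and *Pdia4*, it was highest in Apc1322T replicate 1 and lowest in ApcMin replicate 2. The share of all genes with this pattern is not given. The summed goblet cell markers did not share this pattern, being 6482 CPM in Apc1322T replicate 1 and 9766 and 9483 CPM in replicates 2 and 3.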
